A study of Mus musculus with 4 samples.

Results

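The 50 genes described here encode the machinery that brings secretory and membrane proteins into the endoplasmic reticulum (ER), folds them there, returns failed products to the cytosol and packs finished ones for export, together with the sensors and transcription factors of the unfolded protein response. They were taken as a fixed list of symbols, in 5 roles: 6 sensors and transcription factors, 16 chaperones and folding enzymes, 16 genes of the translocon and of signal peptide targeting, 6 of ER-associated degradation, and 6 of the COPII coat. On the Affymetrix mouse genome array, 48 of them had a probe set that names them alone, out of 18193 genes measured in this way, and these 48 had 119 of the 45037 probe sets tested. Sec61g and Srp54a lie only on probe sets that name several genes and have no value here, and Ero1l is listed under its newer symbol Ero1a. The brightest probe set by mean over the 4 arrays stands for each gene, and the other 71 serve as a check.

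Secretory proteins enter the ER through the Sec61 channel, guided by the signal recognition particle, and are folded by chaperones such as BiP (Hspa5) and by disulfide isomerases. When unfolded protein accumulates, the membrane sensors IRE1α (Ern1), PERK (Eif2ak3) and ATF6 (Atf6) signal to the nucleus: IRE1α splices the mRNA of Xbp1, PERK slows translation and favours that of Atf4, and ATF6 is released by cleavage. In lymphocytes this response is best known from plasma cells, which need Xbp1 to secrete antibody, and T-cells that secrete cytokines use the same route.

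The question asked of the arrays was how regulatory T-cells (Tregs) that secrete IL-10 differ from those that do not. C57BL/6 mice aged 6 to 12 weeks received the superagonistic CD28 antibody D665 (CD28SA), which expands and activates Tregs in vivo. After 3 days, CD4+CD25+ lymph node cells were cultured overnight with IL-2 at 200 U/ml and antibodies to CD3 at 2 µg/ml and to CD28 at 5 µg/ml, stained by a capture assay for secreted IL-10 and sorted into IL-10+ cells (replicates 1 and 2) and IL-10- cells (replicates 3 and 4). Antibody injection and restimulation are thus common to both groups, no unstimulated cells were analysed here, and CD25 marks activated conventional T-cells as well as Tregs. Nothing says whether the 2 arrays of a group come from separate mice or sorts, and p-values then reflect no more than the spread of these 4 samples, in which technical error may be all there is.

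Values were normalized by the authors by variance stabilization and are read here as log2, so that a difference of 1 is taken as 2-fold. The medians of the arrays lay between 6.31 and 6.41, and the SD over all probe sets of the difference between replicates was 0.10 for the IL-10+ pair and 0.15 for the IL-10- pair. The gene used for sorting followed the labels: Il10 was at 12.02 and 12.00 in IL-10+ cells and at 10.41 and 10.37 in IL-10- cells. Of the 10 Treg and T-cell markers examined, all were measured, with a list mean of 11.51 to 11.52 in IL-10+ and 11.49 to 11.56 in IL-10- cells. Within that list 3 rose in IL-10+ cells, Ctla4, an inhibitory receptor, by 0.87, Cd4 by 0.51 and Cd3g by 0.41. Another 3 fell, Foxp3, the lineage factor of Tregs, by 0.72, Ikzf4 by 0.58 and Ikzf2 by 0.55, and 4 did not pass. A difference is called where limma, a linear model with a shared estimate of the spread, gave an adjusted p under 0.05 across all probe sets. By this measure 13.6% of probe sets were higher in IL-10+ cells and 16.2% lower. Among genes by their brightest probe set, 8.37% were higher and 22.9% lower, and among the 3530 genes with a mean of 9 or more, where most of the ER genes lie, 14.7% were higher and 45.5% lower.

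Most of the 16 listed chaperones and folding enzymes were higher in IL-10+ cells, and the other ER genes showed no uniform change. Of 22 further folding enzymes and co-chaperones outside the list, 7 rose and 4 fell. Of the 48 measured genes 21 rose, 8 fell and 19 did not pass the test, where 8.37% of all genes were higher and 22.9% lower. They had a median difference of 0.18 on the log2 scale against -0.015 over all genes and -0.19 over the bright ones. Chaperones and folding enzymes accounted for 14 of the 21, and none of them fell. Of the 14 translocon genes 5 rose and 3 fell. None of the 6 degradation genes rose by the brightest probe set and 3 fell, 1 of the 6 COPII genes rose and none fell, and among the 6 sensors and transcription factors 1 rose and 2 fell. The 2 IL-10+ arrays both lay above the 2 IL-10- arrays for 27 of the 48 genes and both below for 16, against 4833 and 6885 of the 18193 genes measured.

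**Figure D1:**
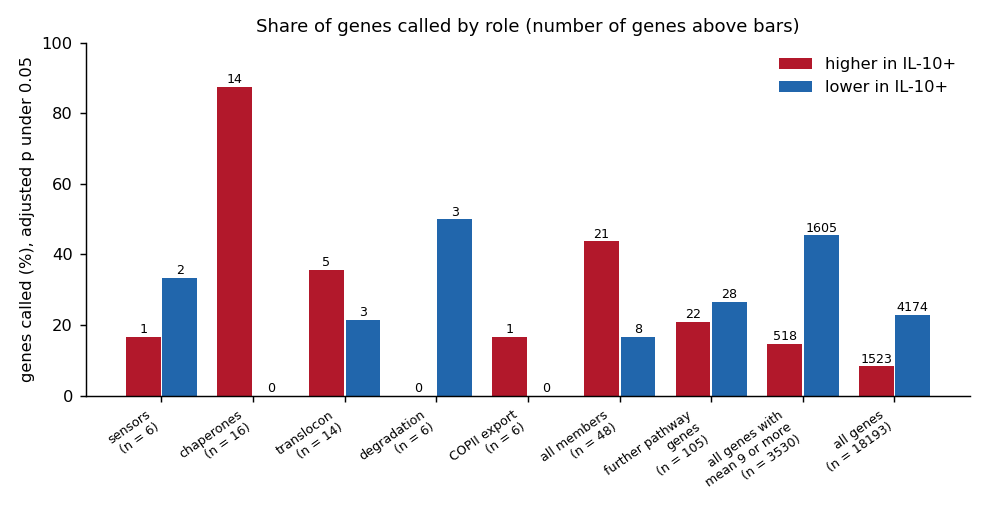
Share of genes called higher (red) or lower (blue) in IL-10+ than in IL-10- cells, in percent (y axis), for each role, for further genes of the same pathways and for all genes measured; the number above a bar is the count of genes. Chaperones stand at 14 of 16 higher, while 8.37% of all genes and 14.7% of the bright ones were higher.

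How many genes were called depended on the scaling of the arrays. As deposited, bright genes as a whole were lower in IL-10+ cells. After cyclic loess the median difference of the 3530 bright genes moved from -0.19 to 0.0027, and 27.3% of them were higher and 26.4% lower; of the 48 ER genes 28 were then higher and 2 lower. Quantile normalization gave 26 higher and 4 lower, with 22.2% of bright genes higher and 34.4% lower. Median centring gave 12 higher and 8 lower, with 11.3% of bright genes higher and 54.8% lower. Without IL-10+ replicate 1 the median difference of the 48 genes was 0.196, and without replicate 2 it was 0.144. Over all probe sets it was 0.0091 in both fits. Fewer ER genes were called there, but the share of all genes called in the same fits is not given here. Calls from such fits assume the lone IL-10+ array to vary like the IL-10- pair.

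Markers of other cells also differed between the sorted groups. Of 16 B cell and plasma cell markers 14 were measured, and 12 fell in IL-10+ cells; plasma cells have an extensive ER of their own. The markers had a list mean of 6.94 to 6.96 in IL-10+ and 8.63 to 8.65 in IL-10- arrays. Igha fell by 5.45, and Mzb1, an ER protein of plasma cells, fell by 2.75. Of 8 macrophage and dendritic cell markers 3 rose (list means 6.985 to 7.003 against 6.771 to 6.841), of 5 measured NK cell markers 1 rose and 2 fell (6.84 to 6.86 against 7.06 to 7.11), and of 2 CD8 T-cell markers 1 fell (7.17 to 7.27 against 7.36 to 7.51). No marker can be at 0 on this scale; 4 of the B cell, 3 of the macrophage and 2 of the NK cell markers had means at or below the median of all probe sets, 6.37. The part of these cells in the ER results was not tested, and fewer cells of a type cannot be told apart from less RNA per cell in such bulk samples.

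Of the sensors, Ern1, the kinase and nuclease that splices Xbp1 mRNA, was at 7.74 and 7.70 in IL-10+ and at 7.52 and 7.43 in IL-10- cells. The groups did not overlap, and the difference of 0.24 ± 0.07 (SE) passed (adjusted p = 0.0285). Eif2ak3, the kinase PERK, was at 7.99 and 7.90 against 7.53 and 7.79, and Atf6 at 8.57 and 8.55 against 8.32 and 8.43. Both were higher on each IL-10+ array than on either IL-10- array, but neither passed, with differences of 0.28 (adjusted p = 0.0628) and 0.18 (adjusted p = 0.086). The 2 dimmer probe sets of Atf6 did pass, at 0.42 and 0.43, and 1 of the 4 dimmer ones of Ern1, at 0.53.

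On their brightest probe sets the transcription factors downstream of PERK were lower. Atf4, which activates genes of amino acid supply and redox balance, was at 11.38 and 11.36 in IL-10+ and at 11.55 and 11.73 in IL-10- cells, a fall of 0.27 (adjusted p = 0.0339). A second Atf4 probe set fell by 0.45 and the third differed by -0.15 without passing. Ddit3, the pro-apoptotic factor CHOP, was at 8.54 and 8.57 against 8.73 and 8.93, also a fall of 0.27 (adjusted p = 0.039). Its dimmer probe set went the other way, at 7.18 and 7.48 in IL-10+ against 6.54 and 6.83 in IL-10- cells, higher by 0.64 (adjusted p = 0.00639). The brightest probe set of Xbp1, the factor made from the spliced mRNA, was at 12.32 and 12.34 against 12.34 and 12.38 (difference -0.026, adjusted p = 0.816). The groups overlapped there. On the next probe set, of a similar brightness, Xbp1 was at 12.32 and 12.33 against 11.93 and 11.83, higher by 0.44 (adjusted p = 0.00191), and a further one was higher by 0.35 (adjusted p = 0.0101). Probe sets of this array cannot separate the spliced from the unspliced mRNA on the information used here.

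The calls of Ern1, Atf4 and Ddit3, the only ones among the 6 by the brightest probe set, were lost in several fits. Without IL-10+ replicate 1 or 2, or without IL-10- replicate 4, none of the 3 passed: their adjusted p values over these fits ran from 0.0708 to 0.18 for Ern1, from 0.096 to 0.151 for Atf4 and from 0.113 to 0.173 for Ddit3. Atf4 and Ddit3 also failed after quantile normalization (-0.098 and -0.20) and cyclic loess (-0.074 and -0.11), and Ern1 after median centring (0.17).

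The median difference of the 16 chaperones and folding enzymes was 0.44, and the 14 that rose ranged from 0.24 to 1.27. Pdia3, also known as ERp57, the disulfide isomerase that works with calnexin and calreticulin and takes part in MHC class I loading, was at 11.86 and 11.97 in IL-10+ and at 10.67 and 10.61 in IL-10- cells. The difference of 1.27 ± 0.07 (SE), or 2.41-fold if the values are log2, was larger than that of any other brightest probe set among the 48 genes (adjusted p = 2.73e-05). Sdf2l1, a partner of ER Hsp40 proteins that keeps clients from aggregating, was at 8.92 and 9.14 against 8.19 and 8.08, higher by 0.90 (adjusted p = 0.000289). Pdia6, a disulfide isomerase that also acts on IRE1α, was at 11.87 and 11.86 against 11.21 and 11.29, higher by 0.62 (adjusted p = 0.000362). Creld2, an ER stress-inducible protein with isomerase activity, was at 10.47 and 10.51 against 9.95 and 9.92, higher by 0.55 (adjusted p = 0.000532). In these genes the gap between the groups was several times the gap within either.

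Further folding enzymes rose by 0.40 to 0.53. Ero1l, the oxidase that recharges disulfide isomerases, rose by 0.53, Hyou1, a large Hsp70-like nucleotide exchange factor of BiP, by 0.51, Manf, a secreted ER stress protein that binds BiP, by 0.49, Pdia4 by 0.48 and Dnajc3, the co-chaperone p58IPK, by 0.40. Hspa5 was at 12.98 and 12.94 in IL-10+ and at 12.54 and 12.74 in IL-10- cells, a rise of 0.32 (adjusted p = 0.0204). Hsp90b1, the ER Hsp90 GRP94, was at 12.34 and 12.50 against 12.14 and 12.21, a rise of 0.24 (adjusted p = 0.0472), while its other probe set was higher by 2.40 and the average of both by 1.32. Dnajb11 and Dnajb9, Hsp40 partners of BiP, rose by 0.31 and 0.24, and Canx, the membrane lectin calnexin, by 0.25. The 2 genes that did not pass were Calr, the soluble lectin calreticulin, at -0.062 (adjusted p = 0.536), and P4hb, the classical protein disulfide isomerase, at -0.018 (adjusted p = 0.89).

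**Figure D2:**
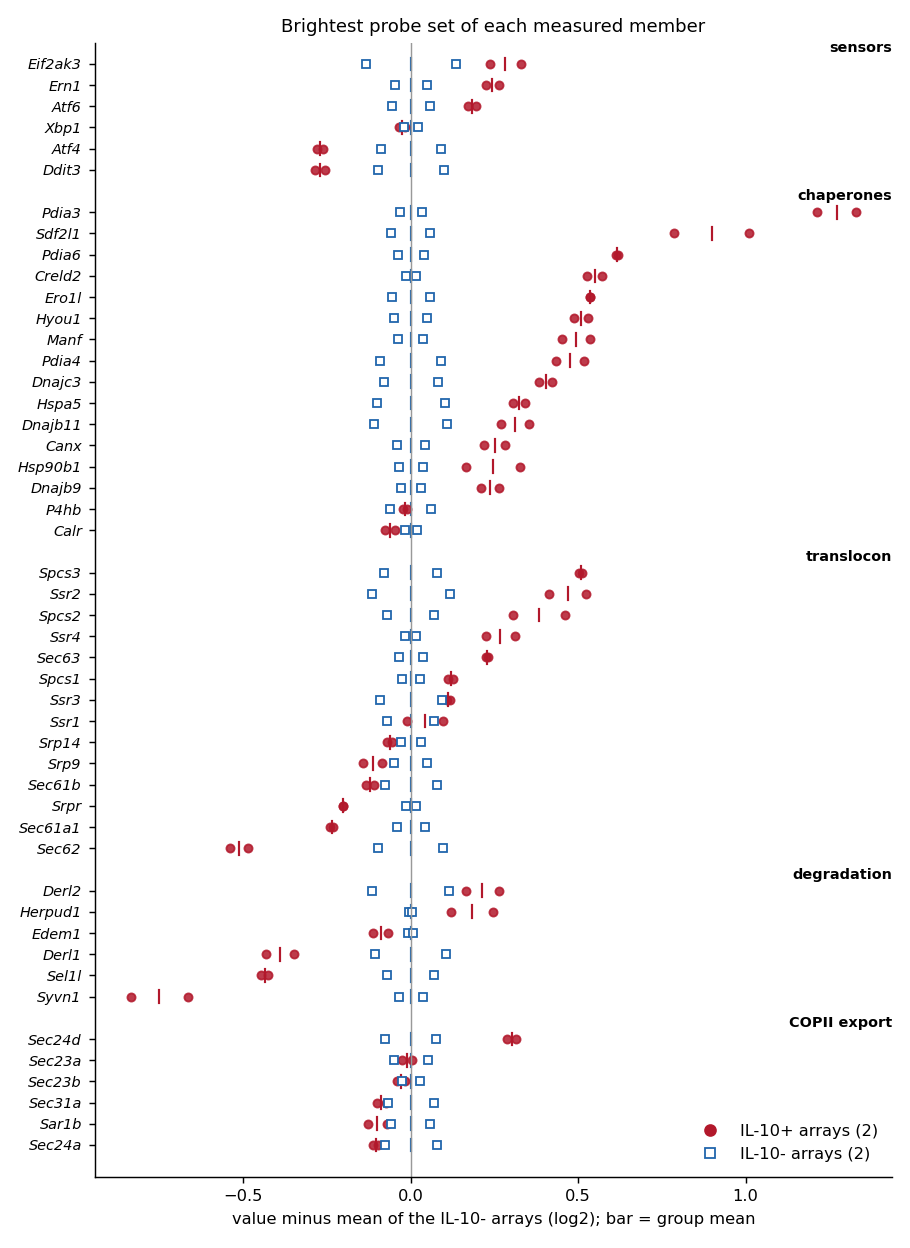
Value of each measured gene on each array minus the mean of the 2 IL-10- arrays (x axis, log2) for the brightest probe set, grouped by role and sorted by difference; red circles are IL-10+ arrays, open blue squares IL-10- arrays, and ticks the group means. The 14 chaperones that rose lie to the right of both IL-10- arrays, Syvn1, Sel1l and Derl1 lie to the left, and most COPII genes lie close to 0.

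The rise of 9 chaperones, Pdia3, Sdf2l1, Pdia6, Creld2, Ero1l, Hyou1, Manf, Pdia4 and Dnajc3, passed under each of the 11 alternatives tried. The other 5, Hspa5, Hsp90b1, Dnajb9, Dnajb11 and Canx, did not pass after median centring or without IL-10+ replicate 1 or 2, which left 9 of 16 called in each of these fits. Without IL-10- replicate 3, 10 of 16 passed, Hspa5 among them. In the first 3 of these fits their adjusted p values ran from 0.0517 to 0.332. In direction, 14 of 16 stayed above 0 in every fit, and the median of the 16 lay between 0.34 and 0.59. The dimmer probe sets of the chaperones were less uniform: of 18, 8 rose, 1 fell and 9 did not pass. Of all probe sets 13.6% were higher and 16.2% lower. Those of Pdia3 (0.037), Pdia6 (0.12) and Pdia4 (-0.062) were among the 9 that did not pass.

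**Figure D3:**
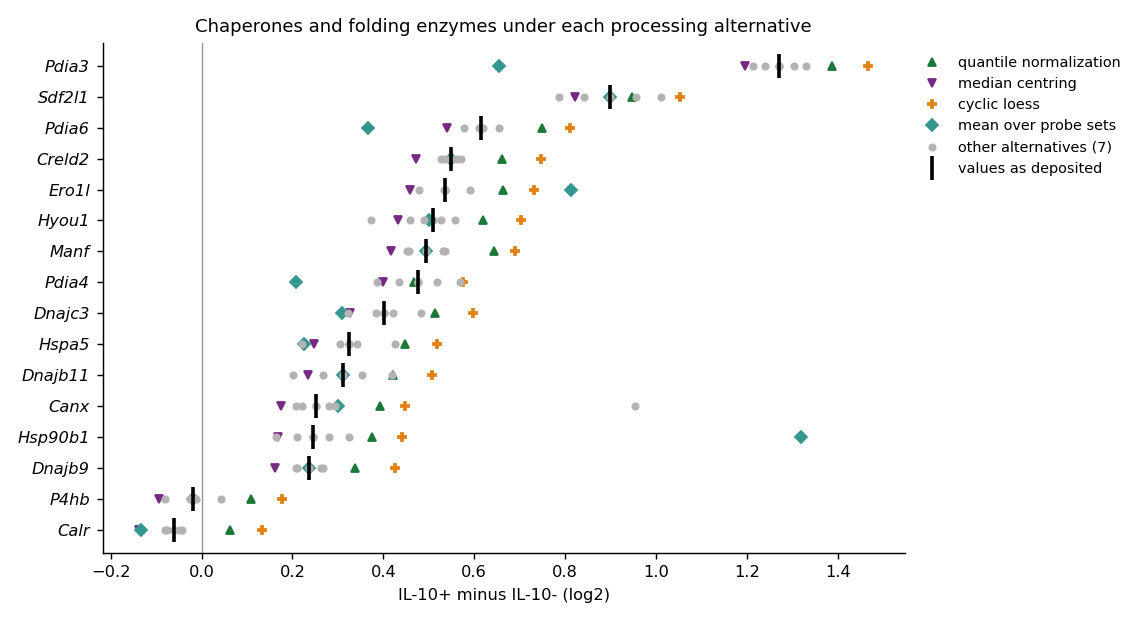
Difference IL-10+ minus IL-10- (x axis, log2) of the 16 chaperones and folding enzymes with the values as deposited (black bars) and under 11 alternatives (symbols). All but P4hb and Calr stayed above 0 throughout; the mean over probe sets moved Hsp90b1 to 1.32 and Pdia3 to 0.65.

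Some of these genes carry a known regulatory sequence, the ER stress response element (ERSE), to which ATF6 binds together with NF-Y. Its letters, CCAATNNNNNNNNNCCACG, were searched on both strands in the 250 bases before the start of transcription, in promoter sequences of RefSeq on GRCm38.p6, which hold 42 of the 50 genes. The element was found in 35 of 27025 genes (0.13%), in 7 of the 13 chaperones with a sequence, in 1 of 5 degradation genes, Syvn1, and in none of the 5 sensors, 13 translocon genes or 6 COPII genes. The 9 matches are shown because all but 1 lie in chaperone promoters; capitals mark the fixed letters, lower case the spacer, and each is written 5′ to 3′ on its own strand.
Hspa5, chr2:34772025-34772043, + strand: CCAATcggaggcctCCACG
Hsp90b1, chr10:86705638-86705656, - strand: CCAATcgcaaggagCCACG
Hsp90b1, chr10:86705533-86705551, + strand: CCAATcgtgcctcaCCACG
Pdia6, chr12:17266491-17266509, + strand: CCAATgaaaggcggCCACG
Dnajc3, chr14:118937827-118937845, + strand: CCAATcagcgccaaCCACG
Creld2, chr15:88819520-88819538, - strand: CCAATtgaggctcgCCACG
Canx, chr11:50325800-50325818, - strand: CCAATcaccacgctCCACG
Calr, chr8:84847075-84847093, + strand: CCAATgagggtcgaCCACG
Syvn1, chr19:6046532-6046550, + strand: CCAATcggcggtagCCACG

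The spacers shared little beyond their length, and the matches lay between 26 and 212 bases before the start. The 150 bases that hold the match in Hspa5, Hsp90b1, Pdia6 and Syvn1 follow, on the strand of the gene, with the fixed letters of the element in capitals (CGTGG and ATTGG where it runs against the gene). They show 3 chaperones that rose beside the degradation gene that fell most.
Hspa5, chr2:34771940-34772089, + strand: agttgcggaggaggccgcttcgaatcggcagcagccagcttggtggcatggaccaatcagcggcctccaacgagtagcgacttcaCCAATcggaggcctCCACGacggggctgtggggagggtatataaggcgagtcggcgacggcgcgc
Hsp90b1, chr10:86705517-86705666, - strand: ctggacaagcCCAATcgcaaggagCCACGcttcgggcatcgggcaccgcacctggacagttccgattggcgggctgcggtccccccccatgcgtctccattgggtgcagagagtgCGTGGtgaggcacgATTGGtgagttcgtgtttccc
Pdia6, chr12:17266439-17266588, + strand: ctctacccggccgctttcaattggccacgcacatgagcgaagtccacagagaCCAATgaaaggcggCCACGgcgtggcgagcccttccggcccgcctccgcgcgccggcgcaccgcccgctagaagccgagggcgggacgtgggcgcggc
Syvn1, chr19:6046426-6046575, + strand: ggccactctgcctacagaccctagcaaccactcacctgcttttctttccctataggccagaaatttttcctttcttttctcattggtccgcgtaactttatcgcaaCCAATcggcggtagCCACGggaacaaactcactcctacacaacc

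Differences of chaperones with and without the element overlapped. Chaperones with a match had a median difference of 0.32, and 6 of 7 rose, all but Calr; those with a promoter sequence and no match had a median of 0.39, and 5 of 6 rose, all but P4hb. Among all 19 measured genes with a match 6 rose, each of them a chaperone of the list, and 3 fell, namely Syvn1, Ero1b, a further ER oxidase, and Adcy3, an adenylate cyclase. The promoter sequences of Atf6, Manf, Hyou1, Ero1l, Sec61a1, Ssr2, Spcs3 and Derl1 were not used here. Of the related elements, ERSE-II, spelled ATTGGNCCACG, was in 10 of 27025 genes (0.037%) and in Herpud1 alone among the members. The XBP1 element TGACGTGG was in 163 genes (0.603%) and in Sec24d alone. The ATF4 element, searched only in the spelling TGATGNAAT, was in 246 genes (0.91%) and in no member. Other spellings of these elements were not searched. A match describes the letters of the window and says nothing of binding in these cells.

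In the translocon and in signal peptide targeting, 5 of 14 genes rose and 3 fell by the brightest probe set. Of all genes 8.37% were higher and 22.9% lower. When all probe sets of each gene were averaged the counts were 6 and 0, and the share of all genes in that fit is not given here. Spcs3, a subunit of signal peptidase, was at 11.00 and 10.99 in IL-10+ and at 10.41 and 10.56 in IL-10- cells, higher by 0.51 (adjusted p = 0.00162). Spcs2, another subunit, was at 11.70 and 11.85 against 11.32 and 11.46, higher by 0.38 (adjusted p = 0.00997). Ssr2, a subunit of the translocon-associated protein complex TRAP, was at 10.44 and 10.55 against 10.14 and 9.91, higher by 0.47 (adjusted p = 0.00624). The groups did not overlap in these 3 genes. Ssr4, a further TRAP subunit, rose by 0.27, and Sec63, an Hsp40-like partner of the channel that recruits BiP, by 0.23.

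Sec62, which works with Sec63 in post-translational import and in ER-phagy, was at 10.24 and 10.30 in IL-10+ and at 10.88 and 10.68 in IL-10- cells, a fall of 0.51 (adjusted p = 0.00238). Sec61a1, the pore-forming subunit of the channel, fell by 0.24 (adjusted p = 0.0289), and Srpr, the receptor of the signal recognition particle, by 0.20 (adjusted p = 0.0433). The remaining 6, Ssr1, Ssr3, Spcs1, Sec61b, Srp9 and Srp14, differed by -0.12 to 0.12 without passing. On the second probe set of each, Spcs1 (0.24, adjusted p = 0.026) and Ssr3 (0.26, adjusted p = 0.023) passed as higher. Ssr1 had dimmer probe sets called in both directions, and no other probe set of Srp9 or Srp14 passed. Spcs3 and Ssr2 passed under every alternative. Spcs2 failed without IL-10+ replicate 2 (0.31, adjusted p = 0.0805), and Ssr4, Sec63, Sec61a1 and Srpr failed without IL-10+ replicate 1 or 2, with adjusted p values from 0.0573 to 0.215. Sec63 also failed without IL-10- replicate 3 (0.19), and Sec61a1 and Srpr without IL-10- replicate 4 (-0.20 and -0.19). Scaling mattered too: Sec61a1 failed after quantile normalization (-0.11, adjusted p = 0.22) and cyclic loess (-0.041, adjusted p = 0.694), and so did Srpr (-0.091 and -0.0054, adjusted p = 0.339 and 0.965). After median centring Ssr4 (0.19, adjusted p = 0.0719) and Sec63 (0.15, adjusted p = 0.145) failed. On the probe set of Ssr4 without a suffix the difference was -0.022. Averaged over probe sets, Sec61a1 passed as higher (0.66), with 2 of its probe sets higher by 2.37 and 2.16, and Sec62 (0.014) and Srpr (0.081) did not pass.

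In ER-associated degradation 3 of 6 genes fell by the brightest probe set, where 22.9% of all genes and 45.5% of the bright ones were lower. Syvn1, the ubiquitin ligase HRD1 at its centre, was at 9.12 and 8.95 in IL-10+ and at 9.75 and 9.82 in IL-10- cells. The fall of 0.75 ± 0.08 (SE) was the largest among the 48 genes (adjusted p = 0.000341), its second probe set fell by 0.54, and it passed under every alternative. Sel1l, the adaptor that stabilises HRD1, was at 9.34 and 9.32 against 9.84 and 9.70, a fall of 0.44 (adjusted p = 0.00284), and Derl1, a membrane protein of the retrotranslocation channel, at 10.67 and 10.59 against 10.92 and 11.13, a fall of 0.39 (adjusted p = 0.0108). In these 3 genes the groups did not overlap, but Derl1 failed without IL-10+ replicate 2 (-0.35, adjusted p = 0.068). After cyclic loess Sel1l (-0.25, adjusted p = 0.0514) and Derl1 (-0.19, adjusted p = 0.101) failed. This left 1 degradation gene lower and 2 higher, where 16.8% of all genes were lower and 11.8% higher. Without probe sets of suffix x or s Derl1 passed as higher (0.55, adjusted p = 0.00144), and averaged over probe sets Sel1l did (0.80). Herpud1, an ER stress-inducible organiser of the HRD1 complex (0.18, adjusted p = 0.0932), Derl2 (0.21, adjusted p = 0.122) and Edem1, a lectin that extracts misfolded glycoproteins (-0.091, adjusted p = 0.344), did not pass. On their dimmer probe sets Derl2 passed as lower (-0.25, adjusted p = 0.024) and Edem1 as higher (0.25, adjusted p = 0.042), while Herpud1 (0.19) did not pass.

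Among the COPII genes Sec24d, a cargo-binding coat subunit, was at 9.45 and 9.42 in IL-10+ and at 9.06 and 9.21 in IL-10- cells, a rise of 0.30 (adjusted p = 0.0176). It failed after median centring (0.22) and without IL-10+ replicate 1 or 2 (adjusted p = 0.104 and 0.0752). Sec23a, Sec23b, Sec24a, Sec31a and the GTPase Sar1b differed by -0.10 to -0.012, and none passed.

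Probe sets of the same gene did not always give the same answer. Over all 119 probe sets 51 rose and 15 fell, where 13.6% of all probe sets on the array were higher and 16.2% lower, and among the 71 that were not the brightest 30 rose and 7 fell. Of 34 ER genes with several probe sets, 8 (23.5%) had probe sets called in opposite directions, namely Ddit3, Canx, Sec61a1, Sec62, Srpr, Ssr1, Derl1 and Sel1l; among all 9010 genes with several probe sets 1078 did (12.0%). Sel1l was the clearest case: its brightest probe set fell by 0.44 while the other 4 rose by 0.90 to 1.66. Sec61a1 fell by 0.24 on the brightest and by 0.39 on the fifth, but was at 9.81 and 9.92 in IL-10+ against 7.56 and 7.44 in IL-10- cells on another, higher by 2.37, and on a further one it was higher by 2.16. Derl1 fell on 2 probe sets and rose by 0.55 on another, and Canx rose by 0.95 on 1 of its dimmer probe sets and fell by 0.31 on the other. When all probe sets of each gene were averaged, Sel1l (0.80) and Sec61a1 (0.66) passed as higher, and Sec62 (0.014), Srpr (0.081) and Ddit3 (0.18) were on the other side of 0 without passing.

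The largest differences of all came from probe sets that were not the brightest. Hsp90b1, at 0.24 on the brightest, was at 11.88 and 11.97 in IL-10+ against 9.50 and 9.56 in IL-10- cells on the other, higher by 2.40 (adjusted p = 2.19e-06). Ssr1, a TRAP subunit that did not pass on its brightest probe set, was at 8.95 and 8.96 against 7.11 and 7.30 on the second, higher by 1.75, and on the fourth it fell by 0.28. Ero1l was higher by 1.72 and Sec63 by 1.30 on the third probe set of each. In all, 7 of the 71 differed by 1 or more and none by -1 or less. At the threshold of the paper's methods, an adjusted p under 0.001 and a change of 2-fold or more, 8 probe sets of 7 ER genes passed, all higher, where 1.72% of all probe sets passed as higher and 0.575% as lower; Pdia3 alone passed by its brightest. If the values are natural logs, 14 probe sets passed as higher and 1 as lower, and 3 genes passed by their brightest, namely Pdia3, Sdf2l1 and, as lower, Syvn1. The cutoff is lower in that case, and the share of all probe sets that pass it is not given here.

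**Figure D4:**
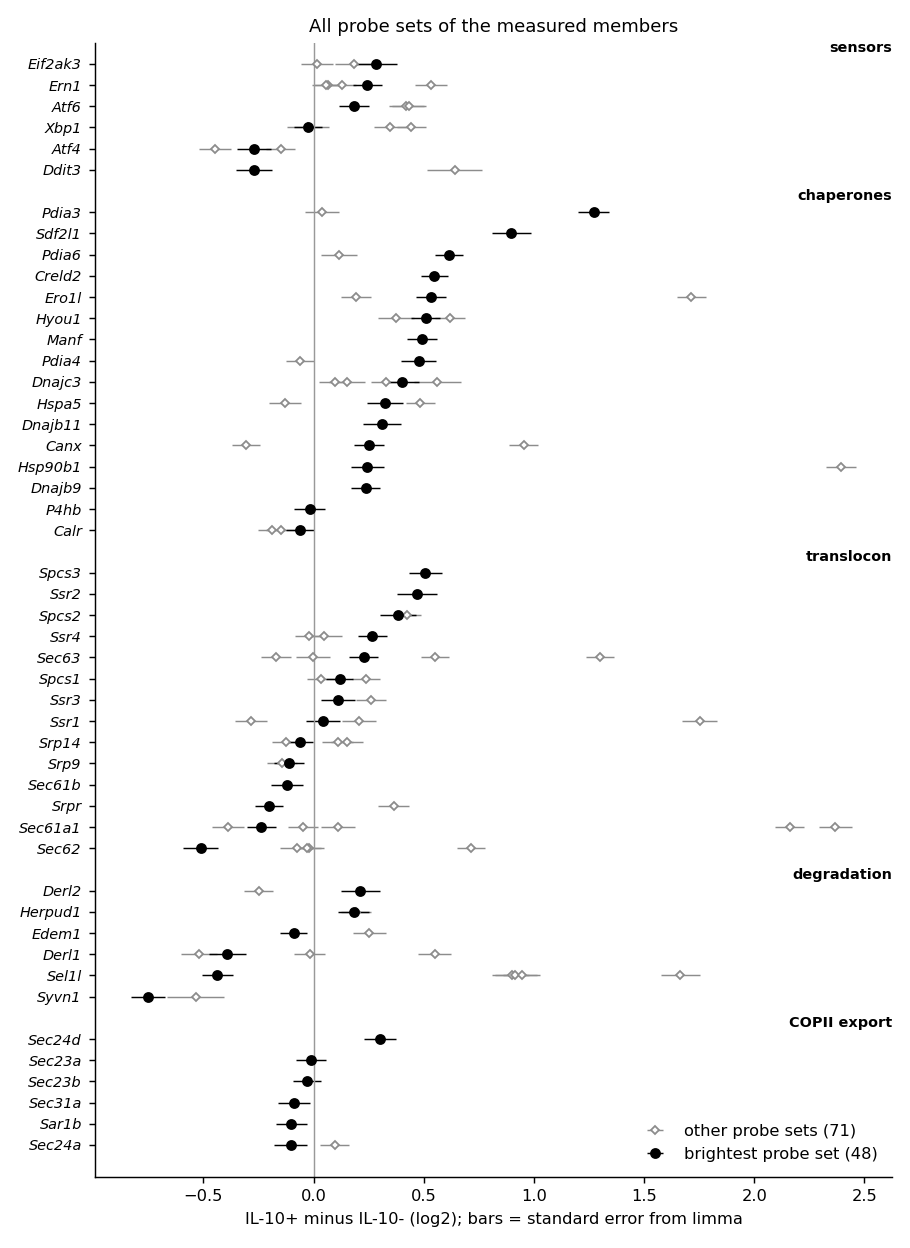
Difference IL-10+ minus IL-10- (x axis, log2) of all 119 probe sets of the 48 measured genes, in the order of the plot of values by array; black circles are the brightest probe sets, open grey diamonds the other 71, and bars are standard errors from limma. Single probe sets of Hsp90b1, Sec61a1, Ssr1, Ero1l, Sel1l and Sec63 lie at 1.30 to 2.40, away from the brightest one of the same gene.

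A measure of added control RNA, not of the RNA of the cells, moved with the groups as well. Probe sets against the 5′, middle and 3′ parts of 4 bacterial control transcripts added to the RNA differed between IL-10+ and IL-10- arrays by a median of 1.11 at the 5′ end, 0.81 in the middle and 0.089 at the 3′ end, and by 1.22, 0.82 and 0.043 in a second series of such probe sets. The positions of the ER probe sets along their transcripts are not given in the sources used here, so the part of this difference in their values was not tested.

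Further genes of the same pathways were counted by lists, 105 of 107 of them measured. Together 22 rose (20.95%) and 28 fell (26.67%), where 8.37% of all genes were higher and 22.9% lower, with a median difference of -0.0023. Among 18 genes of the eIF2 kinases and targets of ATF4, 8 fell (44.44%) and 0 rose by the brightest probe set. Of all genes 22.9% were lower, and of the bright ones 45.5%. Among the 8 that fell only Phgdh and Cebpb were bright genes, so the share of the bright ones is no close match for this list. After quantile normalization 8 fell and 3 rose, where 21.9% of all genes were lower and 9.11% higher. After cyclic loess 7 fell and 4 rose, where 16.8% of all genes were lower and 11.8% higher. When all probe sets of each gene were averaged 5 fell and 3 rose. The share of all genes in that fit is not given here. Vldlr, a lipoprotein receptor induced through ATF4, fell by 0.92 (6.99 and 6.91 against 7.92 and 7.82), Phgdh, the first enzyme of serine synthesis, by 0.79 (10.42 and 10.44 against 11.20 and 11.25), and Eif2ak1, the kinase HRI, by 0.52. Eif2ak1 differed by -0.079 when its probe sets were averaged.

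The other further lists stand beside the same shares of all genes, 8.37% higher and 22.9% lower. In the ATF6 family and its proteases 2 of 8 rose, Atf6b by 0.36 and Creb3 by 0.34, and the Golgi protease Mbtps1, which cleaves ATF6, fell by 0.49. Of 22 further folding enzymes and co-chaperones 7 rose and 4 fell: the thioredoxin-like Tmx3 was higher by 0.65, the prolyl isomerase Fkbp11 by 0.57, and the selenoprotein Selm fell by 0.71. Of 15 genes of N-glycosylation and the calnexin cycle 4 rose, led by Ddost, a subunit of the oligosaccharyltransferase, at 0.70 (10.15 and 10.32 against 9.58 and 9.49), and 2 fell, the glucosidase Mogs by 0.51 and the oligosaccharyltransferase subunit Krtcap2 by 0.43.

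Of 11 further translocon and targeting genes 2 rose, Srp54b by 0.40 and Tram1 by 0.29, and 2 fell, among them Srp68 by 0.30. Of 17 further degradation genes 4 rose, with the mannosidase Edem3 at 0.51, and 5 fell, with Herpud2 at -0.47 and the ubiquitin ligase Rnf139 at -0.46. Of 14 further COPII genes and cargo receptors 3 rose and 6 fell. Lman1, the cargo receptor ERGIC-53, was at 9.75 and 9.91 in IL-10+ and at 8.02 and 8.49 in IL-10- cells, a rise of 1.58 (adjusted p = 0.000191) and the only brightest probe set of the named further genes past the threshold of the paper's methods. Preb, the exchange factor that starts coat assembly, fell by 0.71, and Tmed10, a cargo receptor of the p24 family, by 0.56. Without IL-10+ replicate 1 or 2 the calls of Creb3 and Tram1 were lost, without replicate 2 those of Atf6b and Srp54b, and without replicate 1 that of Srp68, with adjusted p values from 0.0598 to 0.093. Averaging all probe sets of each gene ended the calls of Mbtps1 and Rnf139, and probe sets without the suffixes x and s those of Fkbp11, Tmx3 and Preb.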

How the data were processed

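RNA of sorted CD4+CD25+ cells was extracted with TRIZOL and hybridised to Affymetrix GeneChip mouse genome arrays, 1 per sample. Intensities were normalized by the authors in Bioconductor, by variance stabilization. In the deposited table each probe set has 1 value per array, taken here to be log2. The base is not stated. The highest value, 14.42, is above the natural log of 65535 (11.09), the largest intensity a 16-bit scan holds, while the legends of the paper give differences as natural logs. If the base were e, a 2-fold change would be a difference of ln 2.

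Of 45101 probe sets, 64 controls were set aside and 45037 fitted with limma 3.58.1 in R 4.3.3 (lmFit, eBayes, two-sided, Benjamini-Hochberg over all of them; prior 5.44 and residual 2 degrees of freedom). An exact permutation test of 2 against 2 arrays cannot go below p = 0.333. The step was tested on data drawn with the spread of these arrays for this comparison over 45037 probe sets: of 100 changed by 0.5 it called 44, of 100 changed by 1 it called 97, and 8 of 44837 unchanged ones. Nearly all probe sets were unchanged there, so the cutoff was stricter than in the real comparison. The platform annotation names 1 gene for 34958 probe sets and several for 932, and 9211 are not listed; names with the suffixes _s_at and _x_at can share sequence with other genes. No level of a probe set is compared with that of another. Tables and plots used Python 3.11.15, pandas 2.3.3 and matplotlib 3.10.9.

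Members, roles, further lists and markers were chosen with earlier results of these data known, and no set test was run. Values by array are given for the 6 sensors and factors, for up to 4 called genes with the largest differences in each other role and for those past the paper's threshold; up to 3 genes are named per further list. The array values of Hspa5 and Hsp90b1, those of dimmer probe sets and those of some further genes were added after seeing them. Alternatives were quantile normalization, median centring, cyclic loess, bright probe sets only, a trend in the prior, the mean over probe sets, no suffixes x or s, each array left out, and the natural log base. Depth has no counterpart on arrays; 4 arrays limit the precision.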

Additional observations from a re-analysis of the deposited data

Results flagged for a closer look

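A signal outside the comparison of genes was found in probe sets against the 5′ ends of control transcripts added to the RNA, which were higher on IL-10+ than on IL-10- arrays by a median of 1.109 on the log2 scale (range 0.62 to 1.96 over 4 transcripts), although the transcripts are no product of the cells. At their 3′ ends the range was -0.23 to 0.21.

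The dimmer probe sets, which the counts by brightest probe set do not use, held calls opposite to another probe set of the same gene in 8 ER genes. These were 23.5% of the ER genes with several probe sets, where 12.0% of all such genes had opposite calls. In each of the 8, Ddit3, Canx, Sec61a1, Sec62, Srpr, Ssr1, Derl1 and Sel1l, a dimmer probe set differed by more, in size, than the brightest. How often that holds among other genes is not given here.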

How the results depend on the processing

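Of the 29 called ER genes, 25 kept their call after quantile normalization, 20 after median centring, 23 after cyclic loess, 29 each with bright probe sets only or a trend in the prior, 22 with the mean over probe sets, 26 without the suffixes x and s, and 14 to 24 with 1 array left out; 12 kept it throughout. The sign reversed with the mean over probe sets for Ddit3 (0.18), Sec61a1 (0.66), Sec62 (0.014), Srpr (0.081) and Sel1l (0.80), and without the suffixes for Ssr4 (-0.022), Derl1 (0.55), Preb (0.069) and Tmx3 (-0.043); another probe set then stands for, or enters, the gene. Further causes were not tested.

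Counts are given as higher or lower in IL-10+ cells. Of all genes 8.37% were higher and 22.9% lower as deposited, and 5.59% and 29.8% after median centring. The shares were 11.8% and 16.8% after cyclic loess, and 9.11% and 21.9% after quantile normalization. For the other fits these shares are not given here. Median centring gave 12 higher genes in all, 9 chaperones, 3 translocon genes, 0 sensors and 0 COPII genes. Cyclic loess gave 2 lower genes in all, 3 sensors higher and 0 lower, 8 translocon genes higher and 1 lower, 2 degradation genes higher and 1 lower, and 39 further genes higher. Quantile normalization gave 4 lower in all, 2 sensors higher and 0 lower, 1 translocon gene lower and 2 degradation genes higher. The mean over probe sets gave 2 lower in all, 3 sensors higher and 1 lower, 0 translocon genes lower, 2 degradation genes higher and 1 lower, and 34 further genes higher. Without the suffixes 2 sensors and 1 degradation gene were higher, and with bright probe sets only 2 sensors.

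With 1 array left out, the counts ran from 11 to 22 higher and 3 to 8 lower in all, 0 to 2 higher and 0 to 2 lower for sensors, 9 to 14 higher for chaperones, 2 to 5 higher and 1 to 3 lower for the translocon, 0 to 1 higher for degradation, 0 to 1 for COPII and 10 to 26 for further genes. The share of all genes called in these fits is not given here, so a loss of calls particular to the ER genes cannot be read from them. The median over the 48 genes was 0.26 after quantile normalization, 0.11 after median centring, 0.33 after cyclic loess, 0.20 with the mean over probe sets, 0.22 without the suffixes, and 0.14 to 0.20 with 1 array left out. With natural logs, where the cutoff is a smaller difference, 15 probe sets instead of 8 passed the threshold of the paper's methods.

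No paired analysis was possible because the groups share no replicate number. With 2 arrays per group, differences near 0.5 were often missed in the test on drawn data. The cutoff there was stricter than in the real comparison.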
